A study of Mus musculus with 24 samples.

Results

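The 10 genes described here encode the core of the MHC class II antigen presentation pathway in the mouse: H2-Aa, H2-Ab1, H2-Eb1, H2-Oa, H2-Ob, H2-DMa, H2-DMb1, Cd74, Ciita and Ctss. They were chosen by name, and a probe was assigned to a gene when the RefSeq transcript it was designed against carried that gene's symbol. All 10 were found among the 19722 gene symbols on the array, through 11 probes (H2-Ob had 2 and each of the others 1), and all 10 were among the 15895 genes bright enough to be tested. RNA came from whole lung of healthy C57BL/6 mice at postnatal days 1, 4, 7 and 14, with 5 samples per age, and day 42 (6 weeks), with 4 samples. No group carried a transgene or received a treatment according to the labels. Every sample is labelled postnatal, although the word fetal stands in the title of the series. The labels call the samples biological replicates without saying whether each came from 1 animal, so the p-values measure the spread between these samples.

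MHC class II molecules are heterodimers that display peptides from endocytosed material to CD4+ T cells. H2-Aa and H2-Ab1 encode the alpha and beta chains of I-A, the class II molecule of this strain, and H2-Eb1 the beta chain of I-E, whose alpha chain gene is not functional in C57BL/6. The invariant chain, encoded by Cd74, occupies the groove of new class II molecules and is trimmed by cathepsin S (Ctss), after which H2-DM (H2-DMa with H2-DMb1 or H2-DMb2) exchanges the remaining fragment for peptide. H2-O (H2-Oa with H2-Ob) restrains H2-DM, chiefly in B cells. Ciita is the coactivator that switches the class II genes on; it is carried to their promoters by factors bound to conserved elements called the X and Y boxes. Dendritic cells, B cells and macrophages express class II constitutively or on activation, and alveolar type 2 cells of the lung also express it.

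Promoters are shown because all 10 genes rose from day 1 to day 42, and the class II chain genes are known for sharing this module. Entries for 7 of the 10 genes, in 8 windows, were found in the RefSeq table (GRCm38.p6), which had no match for H2-Ab1, Cd74 and Ciita. The 250 bases before the start site were searched on both strands. An X box core GNAAC followed, on the same strand and 25 to 40 bases later, by the Y box core ATTGG occurred in 5 of the 7 genes and in 2.25% of all 32851 promoters in the table. This pair was chosen after the promoters had been seen. The pair written down earlier, CCNNGNNAC and then ATTGG 15 to 35 bases later, matched H2-Ob alone among these genes and 1.05% of all promoters. Each window below is read 5′ to 3′ on the gene's strand, with the X and Y cores in capitals.

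H2-Oa, chr17:34092293-34092348, plus strand: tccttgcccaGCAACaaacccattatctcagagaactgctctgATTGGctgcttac

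H2-DMb1, chr17:34153087-34153142, plus strand: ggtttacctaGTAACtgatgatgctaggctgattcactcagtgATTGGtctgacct

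H2-Ob, chr17:34238808-34238860, plus strand: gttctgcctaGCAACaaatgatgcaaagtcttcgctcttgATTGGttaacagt

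H2-Aa, chr17:34287859-34287914, minus strand: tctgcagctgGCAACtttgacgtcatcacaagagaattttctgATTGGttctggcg

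H2-Eb1, chr17:34305766-34305820, plus strand: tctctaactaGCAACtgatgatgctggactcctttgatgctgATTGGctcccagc

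The Y core began 33 bases after the X core in H2-Oa, H2-DMb1 and H2-Aa, 32 bases after it in H2-Eb1 and 30 bases after it in H2-Ob. All 5 Y cores lay within the longer string TGATTGG, which 7.23% of all promoters held, and their first base fell between 61 and 43 bases before the start site. The separate cores were common letters, since CCNNGNNAC occurred in 41.1% and CCAAT, the Y core on the other strand, in 33.8% of all promoters. Ctss and H2-DMa (in either of its 2 windows) held no such pair. The Ctss window contained 2 copies of GAAA with 2 bases between them, shown in capitals below, a spacing known for interferon response elements that 2.98% of all promoters held; this motif too was searched after the promoters had been seen.

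Ctss, chr3:95526750-95526782, plus strand: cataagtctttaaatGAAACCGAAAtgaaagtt

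A match of letters was not tested as a binding site. On chromosome 17, where 7 of the 10 genes lie together, the RefSeq order runs H2-Oa, Brd2, H2-DMa, H2-DMb2, H2-DMb1, Psmb9, Tap1, Psmb8, Tap2, H2-Ob, H2-Ab1, H2-Aa and H2-Eb1, which makes 7 of 13 protein-coding genes in this stretch members of the set. Cd74 lies on chromosome 18, Ciita on chromosome 16 and Ctss on chromosome 3.

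Levels are given as log2 of the processed signal minus the 75th percentile of the same array, so that 0 is the signal of a fairly bright probe and a step of 1 is a doubling. A level describes 1 probe across samples and is not set against the level of another probe. All 11 probes were well above background on all 24 arrays, and 0 spots were saturated. A set of 5 arrays stood apart from the rest on the first principal component of all genes (49.8% of the variance): replicates 4 and 5 of day 1, replicates 1 and 3 of day 4, and replicate 4 of day 42. On them at most 56% of the probes were well above background, against 57% to 79.7% on the other 19. The 79.7% was that of day 14 replicate 3, and the next highest share was 64.6%. Set against the other arrays of days 1, 4 and 42, the median of the gene-by-gene log2 differences on the arrays that stand apart was 0.57, 0.50 and 0.63. Differences and counts of calls for the 10 genes are therefore given with and without these 5 arrays, a choice made after seeing the data. Other genes are given with all arrays, and without the 5 where the call differed. The lung identity markers (Sftpc, Sftpb and 8 others) were well above background on all 24 arrays.

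From day 1 to day 42 all 10 genes rose. The call was adjusted p under 0.05 in limma's moderated test with Benjamini-Hochberg adjustment over all 15895 genes, by which 13% of genes rose and 26.7% changed in either direction. The median log2 difference was 2.09 over the 10 genes, against -0.06 over all genes tested, and the differences ran from 0.90 in Ctss to 3.88 in H2-Ob. Without the 5 arrays the 10 calls stood, with a median of 2.35 (22.6% of all genes rose there and 46.6% changed). In whole lung RNA more cells of a type and more RNA per cell cannot be told apart. The step from day 7 to day 14 was positive in all 10 genes, and 4 of them passed the test (6.04% of all genes rose).

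**Figure D1:**
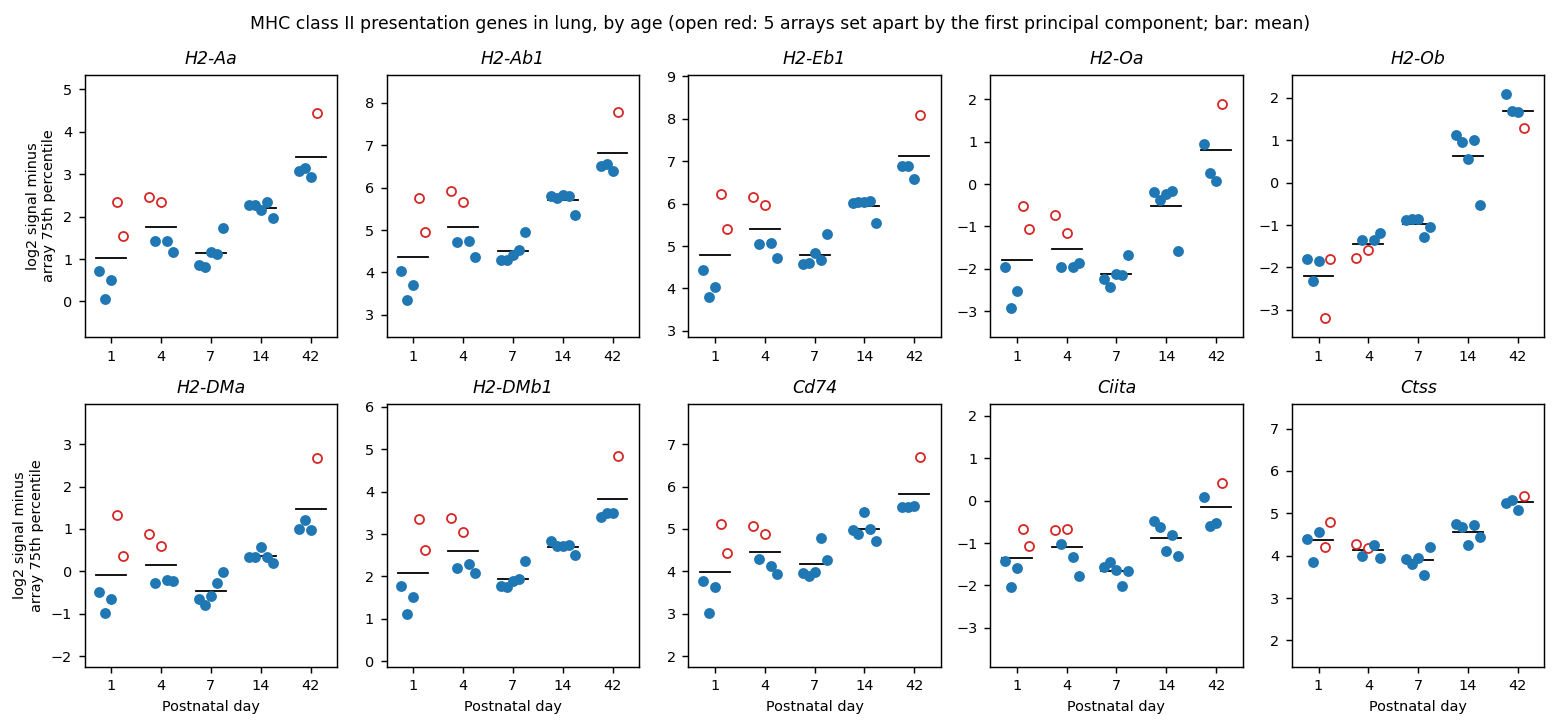
Log2 signal minus the array's 75th percentile for the 10 genes (main probe) by postnatal day, 1 point per array, with the mean of each age as a bar and the 5 arrays that stand apart as open red points; every panel spans the same number of log2 units. The day 42 points lie above the day 1 points in 9 panels, with overlap in H2-DMa, and the open points lie above the filled ones of the same age in most panels but mostly below them in H2-Ob.

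The classical chains moved almost as one. H2-Ab1 read 4.04, 3.35, 3.71, 5.76 and 4.95 in the 5 day 1 samples, 5.92, 4.71, 5.67, 4.74 and 4.36 at day 4, and 4.30, 4.29, 4.42, 4.54 and 4.95 at day 7. It then read 5.80, 5.75, 5.82, 5.81 and 5.35 at day 14 and 6.51, 6.55, 6.40 and 7.79 at day 42. The first 3 ages overlapped, every day 14 sample was above every day 7 sample, and every day 42 sample was above every day 14 sample. The high readings at days 1, 4 and 42 belonged to the 5 arrays that stand apart, which exceeded the others of their age by 1.66, 1.19 and 1.30.

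H2-Ab1 was higher at day 42 than at day 1 by 2.45 ± 0.40 (log2, SE; 5.45-fold; limma adjusted p = 6.41e-05), and by 2.78 ± 0.19 without the 5 arrays. H2-Aa rose by 2.37 ± 0.39 (limma adjusted p = 6.14e-05; 2.63 ± 0.20 without the 5), with day 1 samples between 0.05 and 2.35 and day 42 samples between 2.95 and 4.45. H2-Eb1 rose by 2.34 ± 0.41 (limma adjusted p = 0.000118; 2.70 ± 0.20 without the 5), from 3.80 to 6.22 at day 1 to between 6.58 and 8.09 at day 42. After each gene was centred on its own mean, H2-Ab1 and H2-Eb1 differed by a root mean square of 0.085 log2 over the 24 arrays, the closest pair among the 10 genes. H2-Aa lay nearest to H2-Eb1, at 0.10.

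Of the classical chains, H2-Ab1 alone passed from day 7 to day 14, with a difference of 1.21 ± 0.38 (limma adjusted p = 0.0403), a call that 8 of 24 fits leaving out 1 array each lost. H2-Aa (1.06 ± 0.37, limma adjusted p = 0.0659) and H2-Eb1 (1.15 ± 0.38, limma adjusted p = 0.0558) did not with all arrays, although none of their day 14 samples fell below a day 7 sample. Days 7 and 14 hold none of the 5 arrays, and leaving those out of the fit shortened the standard errors to between 0.15 and 0.16, at which all 3 chains passed with the same differences.

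The H2-DM genes behaved like the classical chains on a smaller scale. H2-DMa was higher at day 42 than at day 1 by 1.55 ± 0.39 (limma adjusted p = 0.00469) and by 1.76 ± 0.17 without the 5 arrays. Its day 1 samples read -0.48, -0.98, -0.66, 1.32 and 0.37 and its day 42 samples 1.00, 1.20, 0.98 and 2.68. With all arrays this was the one gene of the 10 whose day 1 and day 42 samples overlapped (8.64% of all genes lay higher without overlap), through day 1 replicate 4, which stands apart. H2-DMb1 rose by 1.74 ± 0.37 (limma adjusted p = 0.00111; 2.01 ± 0.16 without the 5), and H2-DMa was its nearest gene of the 10, at 0.14. H2-DMb1 and H2-DMb2 are close copies, so that their probes may read each other's transcript in part.

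The H2-O genes rose most steeply. H2-Oa read -1.94, -2.92, -2.51, -0.52 and -1.05 at day 1, -2.23, -2.43, -2.12, -2.15 and -1.67 at day 7, -0.19, -0.38, -0.24, -0.17 and -1.57 at day 14 and 0.96, 0.26, 0.08 and 1.89 at day 42. Day 14 replicates 1 to 4 lay together, and replicate 5 sat just above the highest day 7 sample. H2-Oa rose by 1.61 ± 0.41 from day 7 to day 14 (limma adjusted p = 0.0111) and by 2.59 ± 0.44 from day 1 to day 42 (limma adjusted p = 9.4e-05), and by 1.61 ± 0.26 and 2.89 ± 0.33 without the 5 arrays.

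H2-Ob showed the largest difference among the 10 genes. Its main probe read -1.81, -2.32, -1.85, -3.19 and -1.80 at day 1, -1.79, -1.35, -1.59, -1.36 and -1.18 at day 4, and -0.88, -0.87, -0.86, -1.28 and -1.05 at day 7. At day 14 it read 1.12, 0.95, 0.57, 1.00 and -0.52, and at day 42 2.09, 1.69, 1.67 and 1.28. Day 42 did not overlap day 14, day 14 did not overlap day 7, and the low day 14 reading again came from replicate 5.

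From day 1 to day 42 H2-Ob rose by 3.88 ± 0.30 (14.7-fold; limma adjusted p = 3.95e-09), and by 3.81 ± 0.31 without the 5 arrays. From day 7 to day 14 it rose by 1.61 ± 0.28 (limma adjusted p = 0.000443). From day 14 to day 42 the difference was 1.06 ± 0.30 (limma adjusted p = 0.0499), a call at the threshold that was lost in 21 of 24 fits leaving out 1 array each. On this main probe, the one used for distances, H2-Ob was also least like the other 9 genes, with distances of 0.99 to 1.27 over 24 arrays. Over the 19 arrays without the 5, its distances ran from 0.39 to H2-Oa, the gene of its partner chain, up to 0.98 to Ctss.

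The second H2-Ob probe gave the same direction in these 2 comparisons, with 3.16 ± 0.35 from day 1 to day 42 (limma adjusted p = 5.98e-07 over the 36467 probes tested) and 1.82 ± 0.33 from day 7 to day 14 (limma adjusted p = 0.000861). The 2 probes disagreed on the arrays that stand apart. On the main probe these arrays averaged 0.50, 0.39 and 0.53 lower than the others at days 1, 4 and 42. On the second probe day 1 replicates 4 and 5 read -1.36 and -1.01 against -2.18, -2.72 and -2.59 in the others, and day 42 replicate 4 read 1.95 against 1.26, 0.77 and 0.76.

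**Figure D2:**
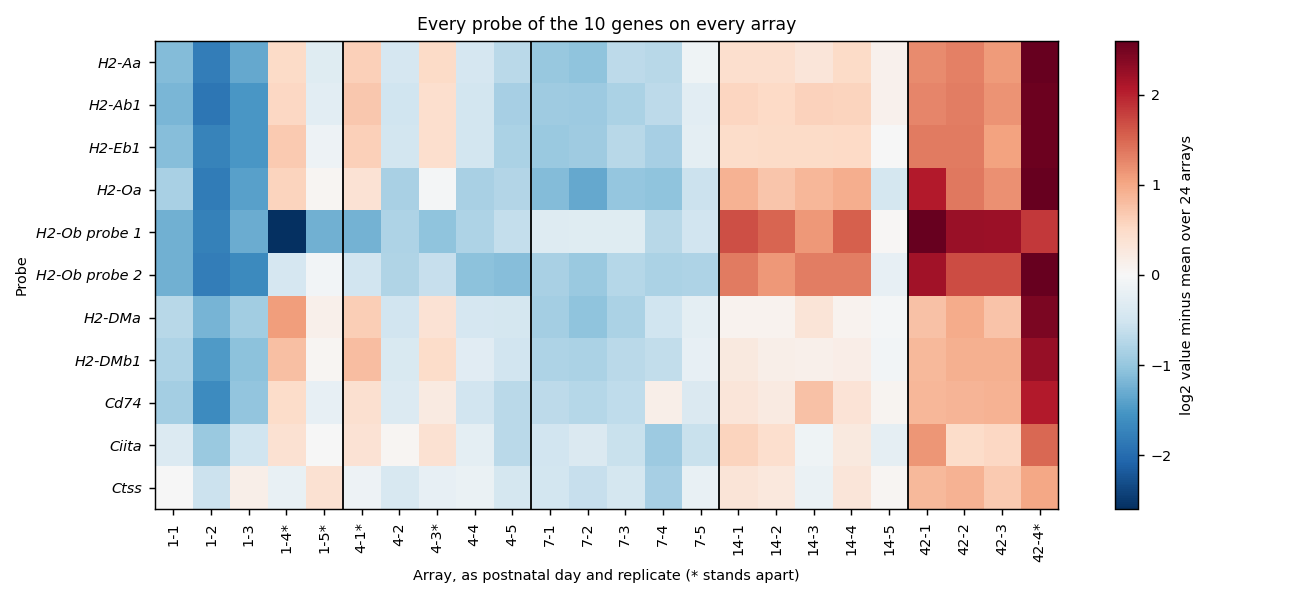
All 11 probes (rows) on all 24 arrays (columns, by postnatal day and replicate, with a star for the 5 arrays that stand apart), as log2 level minus the probe's own mean over the arrays; red is above that mean and blue below. The starred columns are redder than their neighbours in most rows, the main H2-Ob probe is bluest in day 1 replicate 4 at -3.19 before centring, and day 14 replicate 5 is paler than the other day 14 columns in the H2-O rows.

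Cd74, the invariant chain, rose with the chains it escorts. It read 3.76, 3.01, 3.62, 5.11 and 4.42 at day 1, 3.96, 3.89, 3.98, 4.78 and 4.27 at day 7, 4.97, 4.88, 5.41, 5.00 and 4.71 at day 14 and 5.51, 5.52, 5.55 and 6.70 at day 42. Day 7 and day 14 overlapped through day 7 replicate 4, whereas day 42 lay above both. The difference from day 1 to day 42 was 1.83 ± 0.35 (limma adjusted p = 0.000306), and 2.06 ± 0.23 without the 5 arrays. The difference of 0.82 ± 0.33 from day 7 to day 14 did not pass with all arrays (limma adjusted p = 0.121) and passed without the 5 (limma adjusted p = 0.00184).

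Ciita, the coactivator, had a smaller range than the class II chains. It read -1.42, -2.04, -1.59, -0.67 and -1.07 at day 1, -1.56, -1.44, -1.64, -2.02 and -1.65 at day 7, -0.49, -0.63, -1.19, -0.82 and -1.31 at day 14 and 0.09, -0.60, -0.53 and 0.42 at day 42. Day 14 did not overlap day 7, but day 42 overlapped day 14. From day 1 to day 42 Ciita rose by 1.20 ± 0.28 (2.3-fold; limma adjusted p = 0.0022), and by 1.34 ± 0.25 without the 5 arrays. The difference of 0.77 ± 0.26 from day 7 to day 14 passed without them (limma adjusted p = 0.00497) and not with them (limma adjusted p = 0.0611). Whether Ciita rose less than its targets was not tested.

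Ctss, the protease, had the smallest difference of the 10 genes from day 1 to day 42. It read 4.39, 3.85, 4.55, 4.21 and 4.81 at day 1, 3.93, 3.81, 3.94, 3.55 and 4.21 at day 7, 4.75, 4.67, 4.24, 4.72 and 4.45 at day 14 and 5.25, 5.31, 5.08 and 5.42 at day 42. Day 42 lay above every younger sample. Ctss was the least affected by the arrays that stand apart, which exceeded the others of their age by 0.24, 0.18 and 0.20.

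Ctss rose by 0.90 ± 0.18 from day 1 to day 42 (limma adjusted p = 0.000478), by 0.68 ± 0.17 from day 7 to day 14 (limma adjusted p = 0.00879) and by 0.70 ± 0.18 from day 14 to day 42 (limma adjusted p = 0.0283). These differences were 0.95 ± 0.19, 0.68 ± 0.14 and 0.65 ± 0.17 without the 5 arrays, and all 3 passed. It was also the one gene of the 10 with a lower mean at day 4 than at day 1, by 0.23 ± 0.17, which did not pass. Its mean was lowest at day 7 (3.89 ± 0.24, SD, n = 5).

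Before day 7 no member passed the test. From day 1 to day 4 the difference was positive in 9 of 10 genes, with a median of 0.50, and 0 passed in limma (0.0629% of all genes changed). One member, H2-Ob, had an unadjusted p under 0.05, as did 5.13% of all genes. Without the 5 arrays 7 of 10 had an unadjusted p under 0.05 (9.19% of all genes) and 7 had no overlap between the ages, where 10.2% of all genes lay higher without overlap, yet 0 passed (0.0818% of all genes changed; limma adjusted p from 0.103 to 0.815). H2-Ab1 had the lowest of these, with a difference of 0.90 ± 0.19.

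From day 4 to day 7 the difference was positive in H2-Ob alone, with a median over the members of -0.59 against -0.23 over all genes. In limma 0 members passed (0.00629% of all genes changed), and Ciita alone had an unadjusted p under 0.05, a share near the 8.47% of all genes. Day 4 held 2 of the arrays that stand apart and day 7 none. Without them the median was -0.18 and no member had an unadjusted p under 0.05 (5.35% of all genes) or passed (0.0503% of all genes changed).

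From day 7 to day 14 the 4 genes that passed were H2-Ab1, H2-Oa, H2-Ob and Ctss, and without the 5 arrays all 10 passed, where 20.5% of all genes rose. The median of the members was 0.94 in both fits, since neither age holds such an array, against 0.02 over all genes. In 9 of the 10 the ages did not overlap (8.56% of all genes lay higher without overlap). With the slide as a block H2-Eb1 (limma adjusted p = 0.048) and Ciita (limma adjusted p = 0.0455) passed too, which made 6. Single arrays moved the count of 4: it rose to 7 when replicate 2 or 4 of day 1, or replicate 4 of day 42, was omitted, and its lowest value over the 24 such fits was 3.

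From day 14 to day 42 all 10 differences were positive and 2 passed, H2-Ob and Ctss (2.18% of all genes rose). The ages did not overlap in 9 of the 10, all but Ciita, where 7.64% of all genes lay higher without overlap. Without the 5 arrays 8 passed, all but Cd74 and Ciita, where 6.73% of all genes rose. Of the arrays that stand apart, day 42 replicate 4 is the one in this comparison; without the 5 the median of the members fell from 1.11 to 0.77. Leaving out single arrays moved the count between 0 and 5: it was 0 without day 14 replicate 3, day 14 replicate 5, day 42 replicate 1 or day 42 replicate 2, 5 without day 1 replicate 4, and 1 or 2 in the other fits.

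**Figure D3:**
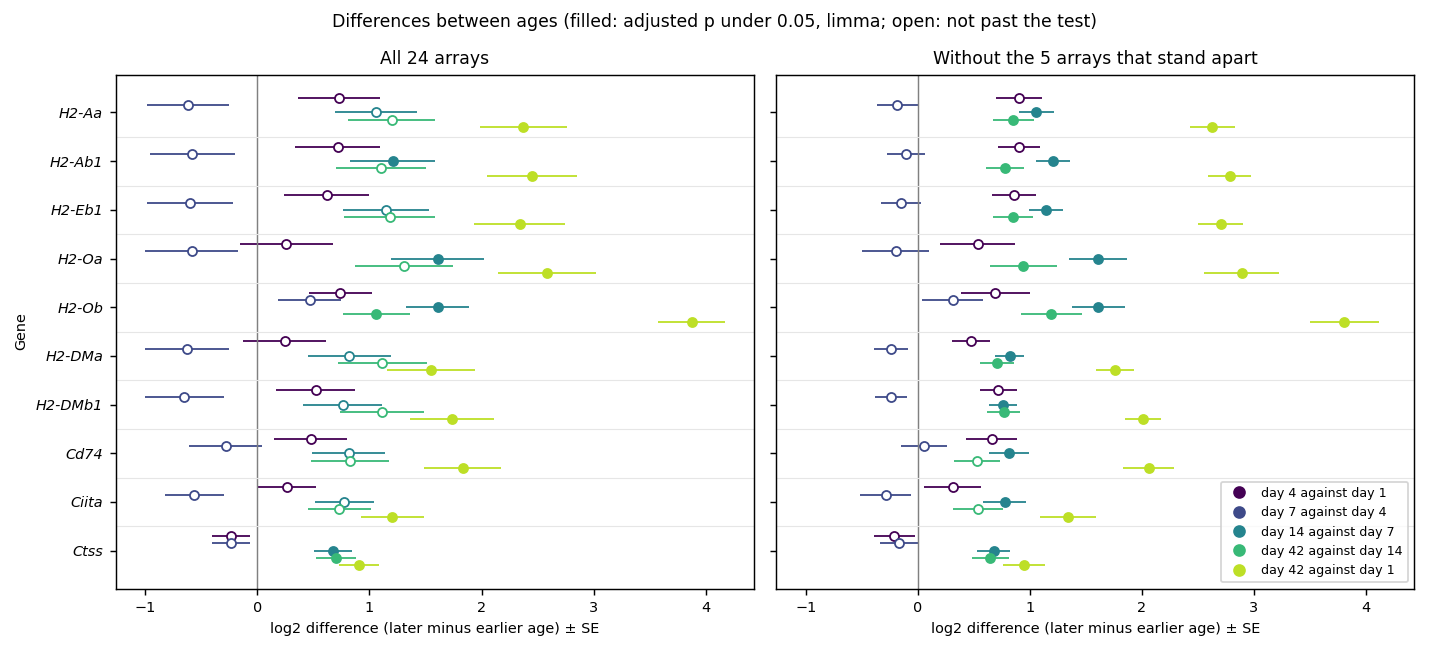
Log2 difference (later minus earlier age) ± SE of each gene in 5 comparisons, with all 24 arrays on the left and without the 5 arrays that stand apart on the right; filled points have a limma adjusted p under 0.05. The day 42 against day 1 points are all filled in both panels, and the day 14 against day 7 points are filled in 4 genes on the left and in 10 on the right.

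In order of mean level with all arrays, 8 genes ran with day 14 and then day 42 at the top and days 1, 4 and 7 below, with each of those 3 overlapping another. On the main H2-Ob probe the mean was higher at each age than at the one before, from -2.19 ± 0.60 (SD, n = 5) at day 1 to 1.68 ± 0.33 (SD, n = 4) at day 42, whereas the second probe differed by -0.025 ± 0.33 from day 4 to day 7. Ctss also had days 14 and 42 at the top, but its mean went from 4.36 ± 0.36 at day 1 to 4.13 ± 0.15 at day 4 and 3.89 ± 0.24 at day 7 (SD, n = 5 each), neighbours that did not differ past the test. A moderated F-test over the 5 ages called all 10 genes, against 31.8% of all genes (53.9% without the 5 arrays).

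The other class II genes on the array rose with the members. H2-DMb2, a second beta chain of H2-DM, was higher by 3.35 ± 0.48 at day 42 than at day 1, and H2-Eb2 by 3.14 ± 0.37 (3.71 ± 0.40 and 3.80 ± 0.37 without the 5 arrays). Each was well above background on 4 of 5 arrays at day 1 and all 4 at day 42, so these differences rest in part on dim signals. Both also passed from day 7 to day 14, by 1.87 ± 0.45 and 1.76 ± 0.35. H2-DMb2 ranged from -6.21 to -3.63 at day 1 and from -2.33 to -0.44 at day 42, so the groups did not overlap.

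Of 12 factors that bind class II promoters or control Ciita, 3 rose from day 1 to day 42 and 0 fell. For this and the following lists, 13% of all genes rose with all arrays and 22.6% without the 5. Irf4, a factor of B cells and dendritic cells, rose by 2.72 ± 0.28, and Irf8, a factor of dendritic cells and macrophages, by 1.08 ± 0.32. Pax5, which defines the B lineage, was not well above background on any day 1 or day 4 array and was so on all 4 day 42 arrays, a difference of at least 3.09-fold (limma adjusted p = 1.06e-05 for the fitted difference). This bound sets the day 42 mean against, on each day 1 array, the dimmest signal that still counted as well above background. The proteins that sit on the X and Y boxes did not pass with all arrays: Rfx5 differed by 0.63 ± 0.26, Rfxank by 0.21 ± 0.37, Rfxap by -0.21 ± 0.18, Nfya by -0.32 ± 0.18, Nfyb by -0.17 ± 0.27, Nfyc by -0.50 ± 0.27 and Creb1 by 0.69 ± 0.62. These were singled out after their values were seen. Without the 5 arrays Rfx5 and Rfxank passed as higher, and Prdm1, which represses Ciita, as lower (-0.44 ± 0.16).

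The genes of interferon gamma signalling, which induces Ciita, mostly rose: 7 of 10 passed as higher from day 1 to day 42 and 0 as lower. Ifng itself rose by 2.97 ± 0.48 and was well above background on 3 of 5 arrays at day 1 and all 4 at day 42. Gbp2, a GTPase induced by interferon, rose by 2.34 ± 0.24. Ido1 was not well above background on any array at days 1, 4 and 7 and was so on 3 of 4 at day 42, a difference of at least 1.4-fold. Without the 5 arrays 8 passed as higher, and Socs1, which restrains the pathway, as lower (-0.60 ± 0.22).

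MHC class I presentation genes rose as well, 11 of 15 with 1 lower, and 13 with 1 lower without the 5 arrays. Nlrc5, the class I counterpart of Ciita, rose by 3.60 ± 0.32, H2-M3 by 2.09 ± 0.34, H2-K1 by 1.96 ± 0.40 and H2-T23 by 1.86 ± 0.39. Psmb9, Tap1, Psmb8 and Tap2, which lie between H2-DMb1 and H2-Ob in the genome, rose by 1.77, 1.38, 1.27 and 1.33. These 8 genes also passed as higher without the 5 arrays. The gene that fell was Pdia3, an endoplasmic reticulum disulfide isomerase, by 0.48 on the log2 scale.

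Of 10 other genes of endosomal processing 1 passed with all arrays, a share near the 13% of all genes that rose. It was the protease Ctsc, which rose by 0.55 ± 0.19. Sppl2a, a protease that clears the last invariant chain fragment, differed by 0.91 ± 0.46 and Cst3, an inhibitor of cysteine cathepsins, by 0.91 ± 0.35, close to the value of Ctss, and did not pass. Without the 5 arrays 5 passed as higher and 1 as lower, among them Cst3 at 1.09 ± 0.15, Sppl2a at 0.70 ± 0.13 and Ctsh at -0.43 ± 0.17, and Ctsc did not pass (limma adjusted p = 0.0536). Of 6 genes of class II turnover and costimulation, the costimulator Cd86 rose by 1.58 ± 0.41 and Cd83, which stabilises surface class II, by 0.75 ± 0.24. Marchf1 and Marchf8, ubiquitin ligases that remove class II from the surface, differed by 0.34 ± 0.42 and 0.19 ± 0.19 and did not pass.

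**Figure D4:**
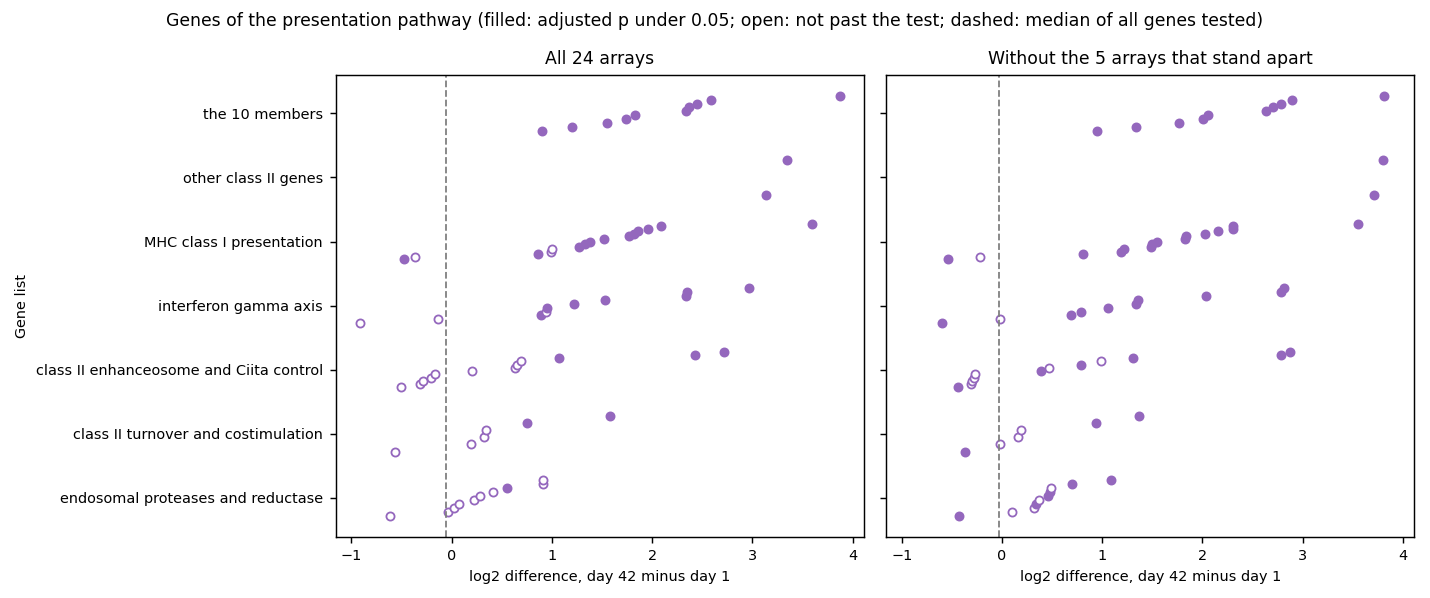
Log2 difference from day 1 to day 42 of each gene in 7 lists (rows), with all 24 arrays on the left and without the 5 arrays that stand apart on the right; filled points have a limma adjusted p under 0.05 and the dashed line is the median of all genes tested, -0.06 on the left. All points of the 10 members and of the other class II genes are filled and right of the line, whereas most points of the endosomal list are open on the left.

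Most markers of B cells, T cells, dendritic cells and alveolar macrophages rose over the same interval, with or without the 5 arrays. Most of those of other macrophages and of alveolar type 2 cells did not pass with all arrays. Without the 5, 7 of 8 and 6 of 10 of these passed as higher. Of all genes 13% rose with all arrays and 22.6% without the 5. The part of these cell types in the differences of the class II genes was not tested. All 10 B cell markers rose from day 1 to day 42 with all arrays (9 without the 5), Cd79b by 1.82 ± 0.42 and Ms4a1 by 2.04 ± 0.69. Their summed signal, in units of the array's 75th percentile, ranged from 5.36 to 12.5 at day 1, 8.07 to 10.5 at day 4, 7.96 to 9.81 at day 7, 10.4 to 28.9 at day 14 and 19 to 49.9 at day 42. The highest B cell sums at days 1, 4 and 42 came from arrays that stand apart. So did those of the lists below, except for alveolar macrophages at days 4 and 42. Such sums add linear signals, so the brightest probes weigh most. The lowest B cell sum at day 14 was that of replicate 5, where the other 4 were between 23.4 and 28.9. That sample was the lowest of its age in 9 of the 10 class II genes (all but Ctss), in the mean log2 level of 9 of the 10 marker lists (all but that of interstitial macrophages and monocytes), and in 29.6% of all genes tested. It also lay apart from its age on the second principal component of all genes, at -8.62 against 40.5 to 48.5.

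Of 8 dendritic cell markers tested, 6 rose (8 without the 5 arrays), with Ccr7 at 2.33 ± 0.42, Itgax at 1.22 ± 0.34 and Flt3 at 2.74 ± 0.19. Itgax was also in the alveolar macrophage list, and Ccr7 in the lymph node list. The sum of the dendritic cell markers ranged from 3.66 to 13.6 at day 1, 6.10 to 12.9 at day 4, 4.75 to 6.92 at day 7, 7.97 to 14.4 at day 14 and 16.4 to 39.8 at day 42. Xcr1, a defining marker of the cross-presenting subset, was not well above background on any array before day 14 and was so on 2 of 5 arrays at day 14 and 3 of 4 at day 42. Batf3 differed by 0.37 ± 0.30 and did not pass with all arrays, but did without the 5 (0.70 ± 0.17).

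Of 10 alveolar macrophage markers, 7 rose (9 without the 5 arrays), with Chil3 at 5.77 ± 0.36 and Marco at 1.25 ± 0.40, whereas Car4, also in the lung identity list, differed by 0.23 ± 0.41 and passed without the 5 arrays alone (0.54 ± 0.15). Their sum ranged from 29.5 to 67.3 at day 1, 30.2 to 76.5 at day 4, 26.8 to 56.4 at day 7, 121.4 to 137.8 at day 14 and 195.3 to 292.2 at day 42. Chil3, whose mean log2 level was 2.34 at day 7 and 6.36 at day 14, weighs heavily in this sum. The mean log2 level of the list ranged from 0.87 to 1.78 at day 7 and from 2.16 to 2.39 at day 14. Of 8 markers of interstitial macrophages and monocytes 2 rose (7 without the 5 arrays), and their sum ranged from 29.8 to 89.9 at day 1, 32.6 to 68.0 at day 4, 29.0 to 37.0 at day 7, 40.7 to 47.9 at day 14 and 54.9 to 132.6 at day 42. Without the 5 arrays this sum ran from 29.8 to 37.7 at day 1 and from 54.9 to 71.5 at day 42, without overlap.

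Of 10 alveolar type 2 markers 2 rose (6 without the 5 arrays), Lyz2 by 1.38 ± 0.29 and Cxcl15 by 0.69 ± 0.19, where 13% of all genes rose. Of these 10 markers the one with the brightest probe, Sftpc, differed by -0.27 ± 0.27. Their sum ranged from 736.5 to 2213 at day 1, 804.1 to 1470.0 at day 4, 678.2 to 939.6 at day 7, 937.4 to 1068 at day 14 and 929.3 to 1913 at day 42. Without the 5 arrays this sum ran from 736.5 to 985.9 at day 1 and from 929.3 to 1130 at day 42. With the leukocyte markers, 4 of 8 rose (8 without the 5 arrays), among them Ptprc, which encodes CD45, by 2.16 ± 0.58, and their mean log2 level ranged from 1.16 to 2.15 at day 1, 1.41 to 1.79 at day 4, 1.19 to 1.52 at day 7, 1.70 to 2.32 at day 14 and 2.53 to 2.93 at day 42.

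Mouse T cells carry little class II, and their part in the class II differences was not tested. T cell markers rose too, 8 of 9 (9 without the 5 arrays), Lck by 2.11 ± 0.40 and Thy1 by 1.44 ± 0.41. Their sum ranged from 6.53 to 22.6 at day 1, 9.33 to 19.9 at day 4, 9.12 to 11.3 at day 7, 11.8 to 21.1 at day 14 and 22.5 to 65.3 at day 42. Without the 5 arrays this sum ran from 6.53 to 9.23 at day 1 and from 22.5 to 27.5 at day 42. Of 9 lymph node and lymphoid follicle genes 6 rose and Madcam1 fell (the same without the 5 arrays), and their sum ranged from 30.8 to 112.1 at day 1, 33.2 to 72.7 at day 4, 28.5 to 43.9 at day 7, 34.3 to 59.0 at day 14 and 53.5 to 147.1 at day 42. Without the 5 arrays this sum ran from 30.8 to 47.9 at day 1 and from 53.5 to 71.3 at day 42. The thymus, which lies beside the lung, was checked as well. Foxn1 was not well above background on any array, and Psmb11 and Ptcra were so on 1 day 14 array each. Of the 7 markers tested 2 rose (Cd8b1 and Themis), with 1 lower, the same without the 5 arrays. Themis was not well above background on any array before day 14 and was so on 3 of 4 at day 42. Its difference from day 1 to day 42 was at least 1.71-fold.

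The thymus sum ranged from 0.71 to 1.69 at day 1, 0.84 to 1.87 at day 4, 0.79 to 1.03 at day 7, 1.18 to 4.26 at day 14 and 1.07 to 2.41 at day 42. The highest, 4.26, was that of day 14 replicate 3, where the other 4 samples of that age were between 1.18 and 1.38. That array also had 79.7% of its probes well above background, against 61.4% to 64.5% on the other day 14 arrays. On that array H2-Ab1 read 5.82, against 5.35 to 5.81 on the other day 14 arrays, and Cd74 read 5.41, against 4.71 to 5.00.

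**Figure D5:**
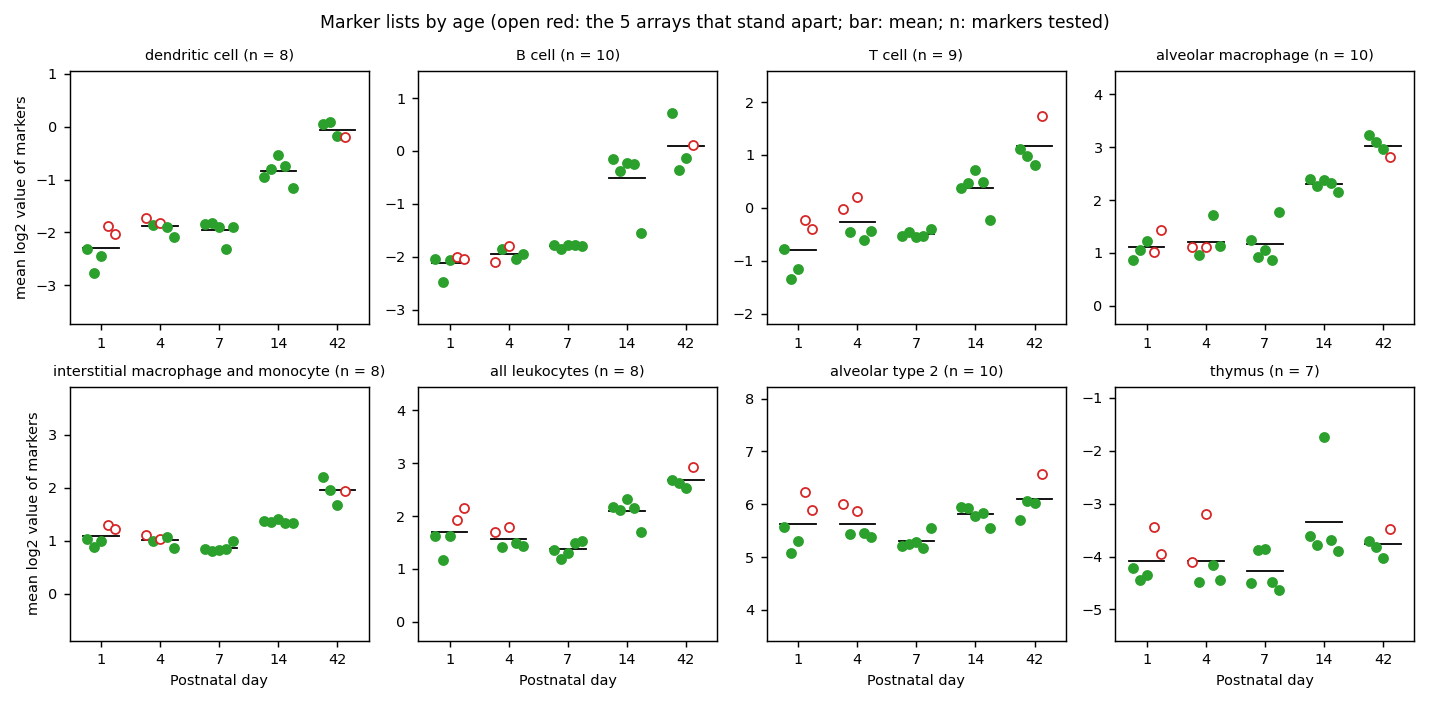
Mean log2 level of the tested markers of 8 lists by postnatal day, 1 point per array, with the mean of each age as a bar and the 5 arrays that stand apart as open red points; every panel spans the same number of log2 units. All 8 panels are higher at day 14 than at day 7 in the mean of the age, and the B cell points of day 42 overlap those of day 14. Day 14 replicate 5 is the lowest day 14 point in most panels, and day 14 replicate 3 is the high point in the thymus panel.

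The genes outside the family whose pattern lay nearest were found by the root mean square difference of centred log2 levels over the 24 arrays, as a description. Nearest to H2-Ab1 were LOC547349 (0.19), the T cell adaptor Skap1 (0.23), the kinase Lck (0.23), the T cell surface gene Cd2 (0.24) and the class I gene H2-Q10 (0.24). Over the 19 arrays without the 5, Flt3, a receptor of dendritic cells and their precursors, replaced Lck, and the other 4 stayed. The neighbours of the other genes depended more on the arrays used. Nearest to Ctss over the 24 arrays was Lilra6 (0.17) and over the 19 Sema4a (0.15); of the nearest 5, Adgre1 alone, which encodes the macrophage antigen F4/80 (0.19 and 0.16), was found with both. Plxdc1 (0.23 and 0.23) and Rasal3 (0.23 and 0.22) were found with both for Cd74, as were Nfkbie (0.23 and 0.21) and Arhgap45 (0.24 and 0.22) for Ciita. All arrays share the same scaling, and the 5 arrays that stand apart weigh on these distances.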

How the data were processed

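RNA of 24 whole lung samples was labelled with Cy3 and hybridised to 1-colour Agilent arrays, 8 to a slide on 3 slides, per the labels and file headers. The processed signal is an intensity, background-subtracted, per the file headers, in version 10.7.3.1 of Feature Extraction (10.7.1.1 per the submitters' processing notes). The authors also deposited a table of log2 values, whose normalization is not given in the sources used here; it served as an alternative. Without controls there were 59305 spots and 55681 probes on an array. Per the file headers, 0 or 1 flags mark spots that are well above background, saturated or not uniform; spots not uniform were left out, and 138 probes without a usable spot on some array were dropped. The 75th percentile of the processed signal ranged from 476.09 to 1652.7 between arrays.

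Log2 intensity minus each array's 75th percentile was averaged per probe. RefSeq gave 1 symbol to 26056 probes. The brightest probe stood for a gene, tested if well above background on at least 4 arrays. All 24 arrays entered 1 fit in limma 3.58.1 (R 4.3.3), with 1 mean per age and Benjamini-Hochberg adjustment over 15895 genes (threshold 0.05). The members, gene lists and comparisons were chosen with earlier results of these data known. Of each list, up to 4 genes past the test from day 1 to day 42 were named by size, with the brightest or defining markers, and others are said to be singled out. On simulated arrays, 77% of genes changed 4-fold and 39% of those changed 2-fold were recovered from day 1 to day 42, among 15895 genes. The number of arrays limits the precision.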

Additional observations from a re-analysis of the deposited data

Results flagged for a closer look

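Of 50 groups, each 1 gene at 1 age, 8 held a sample far from the others of its age by Dixon's criterion, which chance alone meets in about 1 in 20 groups. Of these, 5 were high readings of day 42 replicate 4, one of the arrays that stand apart: H2-Aa at 4.45 (next sample 3.15), H2-Ab1 at 7.79 (6.55), H2-DMa at 2.68 (1.20), H2-DMb1 at 4.84 (3.50) and Cd74 at 6.70 (5.54). The other 3 were low readings of day 14 replicate 5: H2-Ab1 at 5.35 (next sample 5.75), H2-Eb1 at 5.54 (6.02) and H2-Oa at -1.57 (-0.38). The groups of 1 age share samples, so these flags are not independent of each other.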

How the results depend on the processing

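All 10 genes stayed higher at day 42 than at day 1 under 38 alternatives, with 1 exception: H2-DMa gave 1.55 with adjusted p = 0.0914 when the 2 ages were fitted alone. In parentheses is the share of all genes that changed under the same setting. From day 7 to day 14 the 4 calls (11.6%) became 8 with quantile normalization (18%), 1 with median scaling (8.21%, which moved the median of all genes to -0.15) and 10 with the authors' table (22.4%), with the 2 ages fitted alone (31%), with array weights (60.4%), without the 5 arrays (38.5%), and without these and day 14 replicate 5 (44.7%). Leaving out 1 array each gave 3 to 7. H2-Ab1 was not called there with each probe tested (adjusted p = 0.0516), without the filter on dim genes (0.0515) or with median scaling (0.188). From day 14 to day 42 the 2 calls (3.69%) became 5 with quantile normalization (6.12%), 6 with the authors' table (9.6%, 0 of them the same genes), 9 with array weights (31.2%), 8 without the 5 arrays (13.6%) and 7 without these and day 14 replicate 5 (14.2%). They became 1 with median scaling (2.92%, median of all genes 0.28), without the filter on dim genes (2.51%), with each probe tested (3.2%) or with the slide as a block (3.41%), and 0 with the 2 ages fitted alone (1.3%). Leaving out 1 array each gave 0 to 5. From day 1 to day 4 the count of 0 (0.0629%) became 1 with the authors' table (0.623%), 5 with array weights (2.96%) and 4 without the 5 arrays and day 14 replicate 5 (1.64%); from day 4 to day 7 it became 4 with array weights (1 higher and 3 lower; 28.6%). The cause of these shifts was not tested. With the replicate number as a block, the count from day 14 to day 42 became 1 and no other count moved; of 23 pairs of same-numbered samples 8 correlated above 0.1 (range -0.85 to 0.88), so the numbers were not taken to pair the samples. All members were well above background on every array, and the number of arrays limits these results.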
